A study of Homo sapiens with 12 samples.

Results

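The genes described here are 4 angiopoietin-like genes (ANGPTL1, ANGPTL2, ANGPTL4 and ANGPTL6), the 3 peroxisome proliferator-activated receptor (PPAR) genes (PPARA, PPARD and PPARG) and 3 lipid genes that PPARs are known to induce (PDK4, PLIN2 and CPT1A). They are 10 of the 56609 gene symbols in the deposited count table, and all 10 passed the filter on low counts that left 21698 genes for testing. They were picked by symbol with results of these data known. ANGPTL4 was chosen because its level was much higher with JQ1, and ANGPTL2 because its JQ1 response differed between genotypes; the others are relatives of these or PPAR-responsive lipid genes. JQ1 responses of the 10 genes, and their differences between genotypes, are therefore given as a description, with no test. The comparison of genotypes is tested for the 9 genes other than ANGPTL2. For ANGPTL2 it rests on the same low KO JQ1 libraries that led to its choice, and it too is given with no test.

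RNA was sequenced from A375, an established human melanoma line. The cells were wild type (WT), or carried a CRISPR/Cas9 knockout (KO) of MAPKAPK2, which encodes MK2, a kinase that acts downstream of p38 under stress. Each genotype was kept for 48 h in 500 nM JQ1, a drug that displaces BET bromodomain proteins from acetylated chromatin, or in its solvent DMSO. This gave 4 groups of 3 replicates: WT DMSO, WT JQ1, KO DMSO and KO JQ1. The medium in every group was DMEM with fetal bovine serum. The labels do not say whether the knockout is 1 clone or a pool, nor whether replicates were separate cultures. The p-values therefore measure the spread between these samples, which may be technical. An effect of losing MAPKAPK2 cannot be told apart from other differences between the wild-type and knockout cells, such as those of a clone.

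Angiopoietin-like proteins are secreted proteins built like the vascular angiopoietins, but they do not bind the angiopoietin receptor TIE2. ANGPTL4 inhibits lipoprotein lipase, the enzyme that frees fatty acids from circulating fat, and its gene is a known target of PPARs, of hypoxia and of glucocorticoids. ANGPTL2 is known as an inflammatory ligand of integrins and of the receptor LILRB2. PPARs are nuclear receptors for fatty acids that bind DNA as dimers with an RXR, at direct repeats of the half-site AGGTCA with 1 base between. PLIN2 coats lipid droplets, CPT1A carries fatty acids into mitochondria for oxidation, and PDK4 shuts down pyruvate dehydrogenase so that cells burn fat in place of glucose.

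All 10 genes are protein coding in GENCODE release 29 on GRCh38, where ANGPTL4 spans chr19:8363289-8374373 on the plus strand and ANGPTL2 spans chr9:127087332-127122883 on the minus strand. PLIN2 spans chr9:19108375-19149290, PDK4 spans chr7:95583499-95596491 and CPT1A spans chr11:68754620-68844410, each on the minus strand. ANGPTL2 lies within an intron of RALGPS1, and ANGPTL1 within an intron of RALGPS2, each on the opposite strand to its host. ANGPTL6 shares 442 exon bases with C19orf66 on the opposite strand, and ANGPTL4 shares 1 with the antisense gene RAB11B-AS1. Whether the counting used strand is not given in the sources used here, so ANGPTL6 reads in particular are uncertain.

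RefSeq promoter windows of 300 bases, from 250 before to 50 after a transcription start, were found for 10 of 10 genes (GRCh38.p14). The windows below belong to the 4 genes whose levels the results turn on most, 2 that were higher with JQ1 in wild type (ANGPTL4, PLIN2) and 2 that were lower in knockout JQ1 cells than in knockout DMSO cells (ANGPTL2, PDK4). Each is written 5′ to 3′ on the gene's own strand. Capitals mark matches, on either strand, to ACGTG, the core of the hypoxia response element.
ANGPTL4 (chr19:8363905-8364204, plus strand): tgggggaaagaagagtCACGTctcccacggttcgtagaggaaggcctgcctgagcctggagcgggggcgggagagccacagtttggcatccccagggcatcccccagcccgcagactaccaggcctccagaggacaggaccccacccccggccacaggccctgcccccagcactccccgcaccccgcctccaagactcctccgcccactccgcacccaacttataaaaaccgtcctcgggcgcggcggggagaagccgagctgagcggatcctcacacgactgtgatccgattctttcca
PLIN2 (chr9:19127443-19127742, minus strand): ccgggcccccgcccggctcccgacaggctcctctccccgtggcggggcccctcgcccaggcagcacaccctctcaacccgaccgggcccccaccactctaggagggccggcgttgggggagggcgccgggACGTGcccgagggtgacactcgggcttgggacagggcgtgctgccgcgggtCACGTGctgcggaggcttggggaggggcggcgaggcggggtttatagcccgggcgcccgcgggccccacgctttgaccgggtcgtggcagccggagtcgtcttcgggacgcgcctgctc
ANGPTL2 (chr9:127122586-127122885, minus strand): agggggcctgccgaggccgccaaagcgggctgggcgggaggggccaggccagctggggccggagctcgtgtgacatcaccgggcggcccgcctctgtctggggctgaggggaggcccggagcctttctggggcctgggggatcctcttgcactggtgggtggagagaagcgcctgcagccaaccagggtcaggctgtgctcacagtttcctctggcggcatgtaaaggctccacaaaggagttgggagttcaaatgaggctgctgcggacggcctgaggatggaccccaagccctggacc
PDK4 (chr7:95596467-95596766, minus strand): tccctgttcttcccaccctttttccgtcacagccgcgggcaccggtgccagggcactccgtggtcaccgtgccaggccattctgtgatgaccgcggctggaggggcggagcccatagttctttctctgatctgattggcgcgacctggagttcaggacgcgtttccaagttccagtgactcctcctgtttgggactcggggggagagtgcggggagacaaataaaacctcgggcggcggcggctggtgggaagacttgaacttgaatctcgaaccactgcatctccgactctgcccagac
The ANGPTL4 window holds 1 such match, and the PLIN2 window holds 3, of which 2 overlap on opposite strands. The ANGPTL2 and PDK4 windows hold none. Among the other genes, a PPARG window holds 1 match, and the windows of ANGPTL1, ANGPTL6, PPARA, PPARD and CPT1A hold none. ANGPTL6, with no match, was also higher with JQ1 in wild type (log2 1.29), and ANGPTL1 was lower in both genotypes. A link between these matches and the JQ1 response was not tested. Among 35116 RefSeq promoter windows, 21.4% hold ACGTG on either strand. The PPAR half-site AGGTCA, which 13.8% of all windows hold, is in none of the 4 windows written out, and was found in windows of PPARG and ANGPTL6. The direct repeat AGGTCANAGGTCA, allowing 2 mismatches, is in 2.97% of all windows and in none of the 10 genes' windows. These matches describe letters in short windows and are not binding sites.

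Libraries held 25316899 to 34594295 estimated counts. Levels are given as CPM, counts scaled to a library of 1000000 after TMM normalization. MAPKAPK2 ran from 87.9 to 92.1 CPM in WT DMSO and from 112 to 120 in WT JQ1, against 11.1 to 13.2 in KO DMSO and 12.6 to 15.7 in KO JQ1, so every library fitted its genotype label. Replicate pairs differed by a chi-square of 3.35 to 7.64 per degree of freedom, except the pairs with replicate 3 of KO JQ1, at 26.1 and 27.5. In that library 4 abundant noncoding RNAs took 14.6% of the counts, against 9.42% to 12.3% in the other 11. Beside several of the results that it moves, the value without it is given too, for ANGPTL4, ANGPTL1, CPT1A and PPARD in particular. Of 9 melanocyte-lineage markers 7 passed the filter, with summed levels of 725 to 1080 CPM, while the pigment synthesis genes TYR and DCT did not pass. Among the 7, PMEL and MLANA each had a mean below 5 CPM, so the sum rests on SOX10, MITF, MIA, S100B and S100A1. Adipocyte markers summed to 1.33 to 3.93 CPM, hepatocyte markers to 0.0314 to 0.44 CPM and immune markers to 0.157 to 0.531 CPM. The sums were 0.812 to 2.39 CPM for endothelial, 8.1 to 13.2 CPM for fibroblast and 0.0406 to 2.09 CPM for keratinocyte markers.

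ANGPTL4, the lipoprotein lipase inhibitor, had the widest range of the 10 genes as a ratio of highest to lowest level, and its 4 groups did not overlap. In WT DMSO it stood at 3.13, 3.82 and 3.27 CPM, and in WT JQ1 at 34.4, 31.1 and 32.3 CPM. In KO DMSO it stood at 0.994, 1.55 and 1.62 CPM, and in KO JQ1 at 16.8, 16.8 and 23.3 CPM. The order from high to low was WT JQ1, KO JQ1, WT DMSO and KO DMSO. The JQ1 difference, on which the gene was chosen, was a log2 fold change of 3.26 (SE 0.152) in wild type and 3.78 (SE 0.175) in knockout. As a ratio of means these are 9.56-fold and 13.7-fold. Without replicate 3 of KO JQ1, the library that stands apart, the log2 fold change in knockout was 3.61.

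In both treatments ANGPTL4 was lower in the knockout cells. The knockout mean was 40.6% of wild type in DMSO and 58.2% in JQ1. ANGPTL4 fell by 1.30 on the log2 scale in DMSO (SE 0.198, edgeR adjusted p = 0.000693), by 0.78 in JQ1 (SE 0.132, adjusted p = 0.00147) and by 1.04 averaged over treatments (SE 0.119, adjusted p = 2.3e-05). The DMSO and JQ1 comparisons each share libraries with the JQ1 difference on which ANGPTL4 was chosen. Their p-values are therefore not independent of that choice. In this balanced design the averaged comparison is separate from the JQ1 difference. Within KO JQ1 the highest value, 23.3 CPM, came from the library that stands apart; without it the difference in JQ1 was -0.96 (adjusted p = 3.52e-05). The gap between the JQ1 responses of the genotypes was 0.52 (SE 0.239), or 0.34 without the library that stands apart and 0.32 without replicate 1 of KO DMSO. The KO JQ1 mean was 556% of the WT DMSO mean. In bulk RNA, fewer cells with the transcript and less transcript per cell cannot be told apart.

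**Figure D1:**
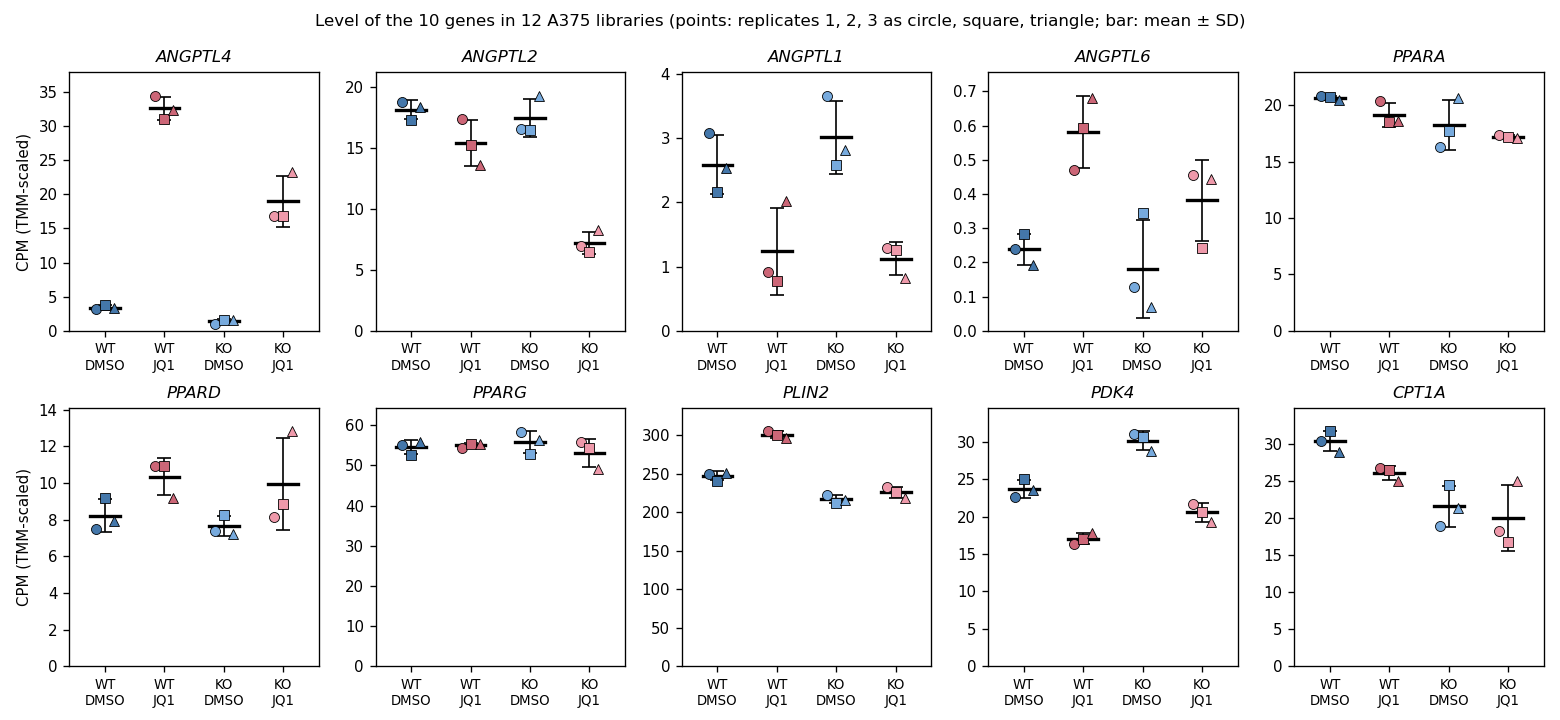
Levels of the 10 genes in CPM (vertical axes, linear, from 0) in the 4 groups of 3 libraries (horizontal axes), with points for replicates and bars for the mean ± SD. ANGPTL4 separates into 4 groups from 0.994 to 34.4 CPM, ANGPTL2 stands apart in KO JQ1 at 6.45 to 8.23 CPM, and PPARG stays between 49.1 and 58.2 CPM throughout.

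ANGPTL2, the integrin ligand, was lowest in KO JQ1 and close together elsewhere. Its levels were 18.8, 17.3 and 18.4 CPM in WT DMSO and 17.3, 15.3 and 13.6 CPM in WT JQ1. They were 16.6, 16.5 and 19.3 CPM in KO DMSO and 6.97, 6.45 and 8.23 CPM in KO JQ1. The first 3 groups overlapped, and every KO JQ1 library lay below all the others. JQ1 against DMSO gave -0.24 (SE 0.108) in wild type and -1.27 (SE 0.115) in knockout, a gap of -1.03 (SE 0.157), for which the gene was chosen. The wild-type value was -0.15 without replicate 3 of WT JQ1, and -0.37 with scaling by library totals. Under JQ1 the knockout mean was 46.8% of wild type, and in DMSO it was 96.2%. Averaged over treatments the knockout difference of ANGPTL2 was -0.57 (SE 0.0787), of which the DMSO part was -0.06 and the JQ1 part -1.09.

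RALGPS1, the guanine nucleotide exchange factor gene that holds ANGPTL2 in an intron, moved the other way under JQ1. It ran from 1.24 to 1.61 CPM in WT DMSO, 3.74 to 4.50 in WT JQ1, 1.51 to 1.86 in KO DMSO and 3.08 to 4.12 in KO JQ1. It rose by 1.5 in wild type (SE 0.165, edgeR adjusted p = 7.05e-06) and by 1.11 in knockout (SE 0.165, adjusted p = 9.97e-05). Neither its knockout effect (0.06 averaged, SE 0.117, adjusted p = 0.826) nor the difference between its JQ1 responses (-0.39, SE 0.234, adjusted p = 0.681) passed the test.

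**Figure D2:**
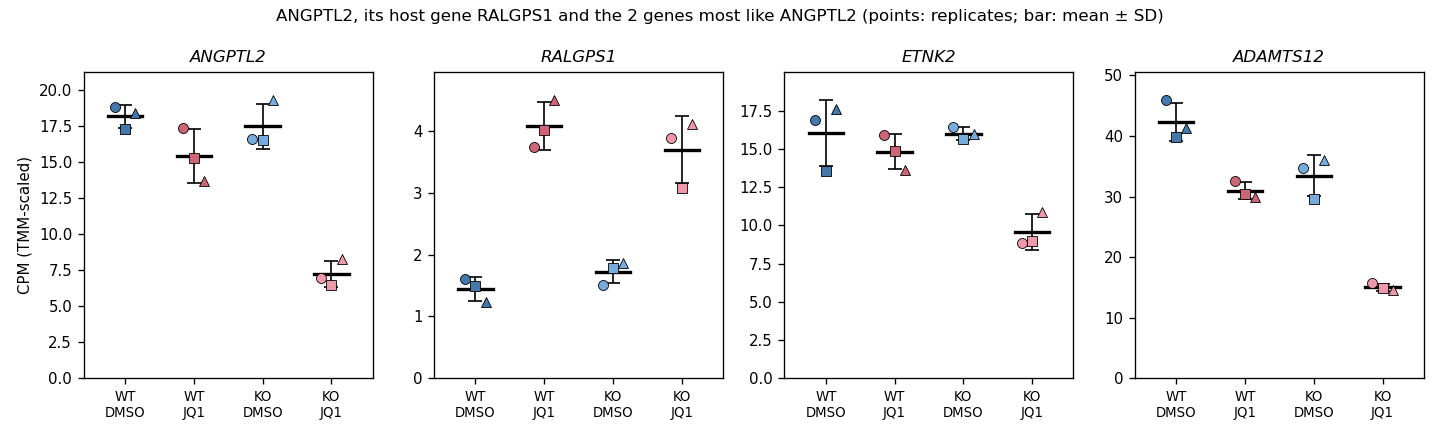
CPM (vertical axes, linear, from 0) of ANGPTL2, its host gene RALGPS1, and ETNK2 and ADAMTS12, in the 4 groups (points are replicates, bars the mean ± SD). ANGPTL2 was lowest in KO JQ1, where RALGPS1 at 3.08 to 4.12 CPM was above both DMSO groups.

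ANGPTL1 and ANGPTL6 were scarce. ANGPTL1, a reported inhibitor of blood vessel growth, stood at 3.07, 2.16 and 2.53 CPM in WT DMSO and 0.911, 0.779 and 2.01 in WT JQ1. In the knockout it stood at 3.65, 2.58 and 2.81 CPM in DMSO and 1.29, 1.26 and 0.823 in JQ1. JQ1 libraries were all below DMSO libraries, with log2 fold changes of -1.05 (SE 0.296) and -1.43 (SE 0.305) in wild type and knockout. The knockout value was -1.24 without the library that stands apart. Replicate 3 of WT JQ1 was the high one of its group; without it the wild-type value was -1.60. The averaged knockout effect was 0.02 (95% interval -0.44 to 0.49, edgeR adjusted p = 0.965). Its host RALGPS2 was at 49.99 to 78.7 CPM and fell by 0.27 in the knockout averaged over treatments (SE 0.0661, adjusted p = 0.0112).

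ANGPTL6 had only 2 to 23 counts a library, or 0.0702 to 0.68 CPM. WT JQ1 libraries (0.471, 0.594 and 0.68 CPM) were above WT DMSO libraries (0.238, 0.283 and 0.192 CPM), while KO DMSO (0.128, 0.343 and 0.0702 CPM) and KO JQ1 (0.457, 0.243 and 0.443 CPM) overlapped. Its JQ1 fold changes were 1.29 (SE 0.434) and 1.08 (SE 0.491) on the log2 scale, the latter 1.89 without replicate 2 of KO DMSO and 0.72 without replicate 3, and the averaged knockout effect was -0.48 (95% interval -1.19 to 0.22, edgeR adjusted p = 0.402). Without replicate 2 of KO DMSO that effect was -0.89 (adjusted p = 0.104), and without replicate 3 of KO DMSO it was -0.30 (adjusted p = 0.654).

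The receptor genes differed little between groups. PPARG, the fat-cell member of the family, was the most abundant receptor, at 55.2, 52.6 and 55.9 CPM in WT DMSO, 54.3, 55.3 and 55.3 in WT JQ1, 58.2, 52.9 and 56.3 in KO DMSO and 55.7, 54.3 and 49.1 in KO JQ1. All 4 groups overlapped. Its averaged knockout effect was -0.01 (95% interval -0.11 to 0.08, edgeR adjusted p = 0.921), and its JQ1 differences were 0.01 and -0.08, or -0.12 and -0.19 when libraries were scaled by their totals alone.

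PPARA, best known for fatty acid oxidation in liver, was at 20.8, 20.7 and 20.45 CPM in WT DMSO and 20.35, 18.5 and 18.6 in WT JQ1. In the knockout it was at 16.3, 17.7 and 20.6 CPM in DMSO and 17.4, 17.2 and 17.1 in JQ1. In the order of means WT DMSO and WT JQ1 did not overlap, while WT JQ1 and KO DMSO, and the 2 knockout groups, did. The KO JQ1 libraries were below all wild-type libraries, yet the averaged knockout effect of -0.17 did not pass (SE 0.0607, edgeR adjusted p = 0.0826). It passed when replicate 3 of KO DMSO, the high one of its group, was left out (-0.21, adjusted p = 0.0231), and with scaling by library totals (-0.21, adjusted p = 0.0375). With limma on the authors' normalized signal it was -0.02 (adjusted p = 0.937).

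PPARD, the broadly expressed member, was at 7.51, 9.21 and 7.94 CPM in WT DMSO, 10.9, 10.9 and 9.20 in WT JQ1, 7.41, 8.28 and 7.23 in KO DMSO and 8.15, 8.85 and 12.8 in KO JQ1. Every pair of groups next to each other in the order of means overlapped. The highest library was the one that stands apart. JQ1 differences were 0.33 (SE 0.152) and 0.39 (SE 0.154), the latter 0.16 without that library and the former 0.20 with scaling by library totals. The averaged knockout effect was -0.08 (95% interval -0.31 to 0.15, edgeR adjusted p = 0.724), and -0.19 without that library (adjusted p = 0.129). Divided by annotated exon length, mean levels in WT DMSO were 12 CPM per kilobase for PPARG, 1.84 for PPARD and 1.56 for PPARA.

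The lipid genes differed in direction. PLIN2, the lipid droplet coat, was the most abundant of the 10 genes at 48.6 CPM per kilobase of exon in WT DMSO. It stood at 250, 240.7 and 251.2 CPM in WT DMSO and 305, 300.4 and 296 in WT JQ1. In the knockout it stood at 223, 212 and 216 CPM in DMSO and 233, 227 and 219 in JQ1. WT JQ1 was above all other libraries, WT DMSO came next, and the 2 knockout groups overlapped. JQ1 against DMSO gave 0.28 (SE 0.0467) in wild type and 0.06 (SE 0.0469) in knockout. With scaling by library totals these were 0.15 and -0.06. PLIN2 fell by 0.30 in the knockout averaged over treatments (SE 0.0331, edgeR adjusted p = 1.7e-05) and by 0.41 in JQ1 (SE 0.0469, adjusted p = 4.75e-05). In DMSO it fell by 0.19 (SE 0.0468, adjusted p = 0.0215). That DMSO call was lost when any 1 DMSO library was left out (adjusted p from 0.055 to 0.139), among other alternatives.

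PDK4, the brake on pyruvate dehydrogenase, was lower with JQ1 and higher in the knockout, and its 4 groups did not overlap. It was at 22.6, 25.03 and 23.5 CPM in WT DMSO and 16.3, 17.0 and 17.8 in WT JQ1. In the knockout it was at 31.1, 30.6 and 28.7 CPM in DMSO and 21.7, 20.6 and 19.3 in JQ1. JQ1 differences were -0.47 (SE 0.0743) in wild type and -0.55 (SE 0.0737) in knockout. PDK4 rose in the knockout by 0.35 in DMSO (SE 0.0726, edgeR adjusted p = 0.00716) and by 0.31 averaged over treatments (SE 0.0523, adjusted p = 0.000812). In JQ1 it rose by 0.27 (SE 0.0753, adjusted p = 0.0399), a call that did not pass in 13 of 18 alternatives although the value stayed between 0.225 and 0.311. Scaled by library totals, the JQ1 differences of PDK4 were -0.60 and -0.67.

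CPT1A, the gate of mitochondrial fatty acid oxidation, was highest in WT DMSO, at 30.3, 31.7 and 28.9 CPM. It was at 26.7, 26.4 and 24.9 CPM in WT JQ1, 18.9, 24.4 and 21.3 in KO DMSO and 18.2, 16.7 and 24.98 in KO JQ1. The wild-type groups did not overlap each other, and the 2 knockout groups did. JQ1 differences were -0.22 (SE 0.123) and -0.10 (SE 0.127). The latter was -0.30 without the library that stands apart and 0.01 without replicate 2 of KO JQ1, and the former was -0.35 with scaling by library totals and -0.11 with limma on the authors' normalized signal. CPT1A fell by 0.43 in the knockout averaged over treatments (SE 0.0888, edgeR adjusted p = 0.00353) and by 0.49 in DMSO (95% interval -0.76 to -0.23, adjusted p = 0.0235). The DMSO call was lost without replicate 1 or 2 of WT DMSO, or without replicate 1 or 3 of KO DMSO (adjusted p from 0.0712 to 0.1). In JQ1 the difference was -0.37 (SE 0.126, adjusted p = 0.0889). It moved to -0.57 (adjusted p = 0.00109) without the library that stands apart, whose 24.98 CPM was the high value of its group.

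Of the 9 genes other than ANGPTL2, 4 passed an adjusted p of 0.05 in the averaged knockout comparison, against 14.8% of all genes tested. PDK4 was the 1 that was higher (6.48% of all genes were called higher), and ANGPTL4, PLIN2 and CPT1A were the 3 that were lower (8.27% of all genes). The median over the 9 genes was -0.17, beside -0.0032 over all genes. In DMSO 4 of the 9 passed, 1 higher and 3 lower, where 7.92% of all genes were called (3.47% higher, 4.44% lower). In JQ1 3 of the 9 passed, 1 higher and 2 lower, where 8.57% were called (3.01% higher, 5.56% lower). For JQ1 against DMSO, which the choice of genes used, 5 of all 10 were past the threshold in wild type, 3 higher and 2 lower, beside 33.1% of all genes (16.9% higher, 16.2% lower). In the knockout 4 were, 1 higher and 3 lower, beside 34.4% (16.7% higher, 17.8% lower). For the difference between JQ1 responses 1 was, ANGPTL2, which was chosen for that difference, beside 0.134% of all genes. The counts for JQ1 and for the difference between responses are therefore a description and no test. Scaled by library totals alone, the median log2 fold change with JQ1 was -0.16 in wild type and -0.12 in knockout, against -0.034 and -0.0035. Calls for JQ1 then split into 2298 higher and 5368 lower in wild type and 2409 and 5250 in knockout, against 3665 and 3522, and 3616 and 3856. Calls for the knockout split into 940 and 2172 averaged and 516 and 1158 in DMSO, against 1407 and 1795, and 754 and 964. The DMSO and the JQ1 libraries of both genotypes serve both kinds of comparison, so these counts are not independent of each other.

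**Figure D3:**
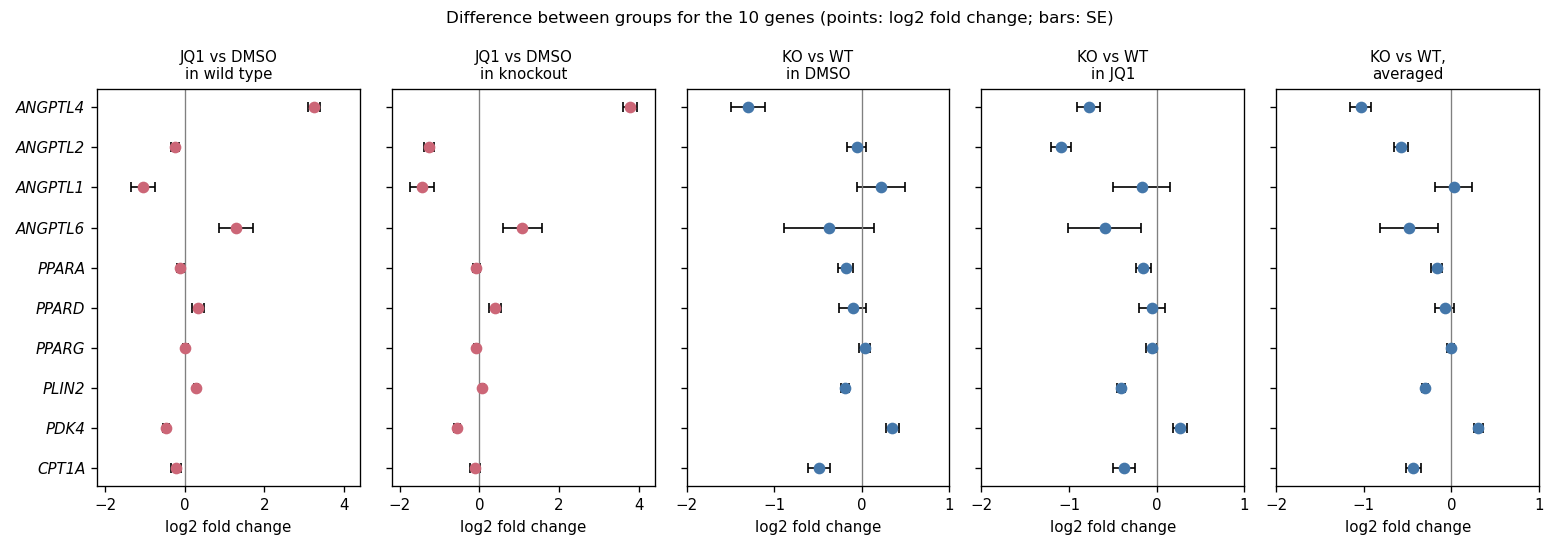
Log2 fold changes (horizontal axes; points, with bars for the SE) of the 10 genes in 5 comparisons, with wider axes for the 2 JQ1 panels. ANGPTL4 is at 3.26 and 3.78 with JQ1 and at -1.04 in the averaged knockout comparison, where PDK4 at 0.31 is on the opposite side of 0.

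For the gene lists that follow, the shares of all genes called are again 16.9% higher and 16.2% lower with JQ1 in wild type, 16.7% and 17.8% in knockout, and 6.48% and 8.27% in the averaged knockout comparison. The medians over all genes were -0.034, -0.0035 and -0.0032. The PPAR partners and coregulators numbered 12, all tested. With JQ1 4 rose and 3 fell in wild type, and 2 rose and 3 fell in knockout, beside 33.1% and 34.4% of all genes called. RXRG, an RXR gene, was at 12.3 to 14.3 CPM in WT DMSO, 3.34 to 3.80 in WT JQ1, 6.44 to 8.11 in KO DMSO and 1.14 to 2.19 in KO JQ1, with no overlap. It fell with JQ1 in both genotypes, at -1.92 and -2.14 (edgeR adjusted p = 3.46e-07 and 3.61e-07), and fell by 0.98 in the averaged knockout comparison (SE 0.118, adjusted p = 3.51e-05). PPARGC1A, the coactivator PGC-1alpha, fell by 1.03 in that comparison at 0.103 to 1.00 CPM (SE 0.265, adjusted p = 0.0162), a call lost without replicate 1 of WT DMSO (-0.96, adjusted p = 0.0523). With JQ1 PPARGC1A rose by 1.34 in wild type (edgeR adjusted p = 0.00574) and by 1.23 in knockout (adjusted p = 0.0318). Its knockout call with JQ1 was lost in 7 of 17 alternatives. The coactivator genes NCOA3 and NCOA2 went opposite ways with JQ1: NCOA3 rose by 0.40 and 0.28 in wild type and knockout, and NCOA2 fell, at -0.41 and -0.64. The knockout value of NCOA3 did not pass with scaling by library totals (adjusted p = 0.0735). NCOR1, a corepressor, fell by 0.27 with JQ1 in knockout. The list's medians were -0.04 and -0.12 with JQ1 and -0.06 in the averaged knockout comparison, where 2 of 12 fell. Scaled by library totals, 2 rose and 3 fell with JQ1 in wild type, and 0 rose and 5 fell in knockout.

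Of 34 PPAR target genes beyond the 3 described above, 28 were tested. Those left out reached at most 9 counts in a library, among them the fat-cell genes FABP4 and ADIPOQ. With JQ1 10 rose and 6 fell in wild type (median 0.04), and 9 rose and 5 fell in knockout (median 0.09). Scaled by library totals the wild-type split turned, to 6 that rose and 8 that fell (median -0.09), and the knockout split was 7 and 5 (median -0.03). Both directions occurred within fatty acid oxidation. ACADVL, an acyl-CoA dehydrogenase, rose by 0.58 in wild type and 0.71 in knockout (adjusted p = 1.55e-06 and 1.56e-07), and ACAA2, a thiolase, fell by 0.29 in knockout (adjusted p = 0.00543). VLDLR, a lipoprotein receptor, rose by 0.67 and 1.28 (adjusted p = 1.77e-05 and 3.75e-08), ACSL1, which activates fatty acids, by 0.52 and 0.71, and catalase (CAT) by 0.57 and 0.46. LPL, the lipase that ANGPTL4 inhibits, fell, at -0.60 and -0.46 (adjusted p = 4.59e-05 and 0.000374), from 21.95 to 26.3 CPM in WT DMSO to 15.6 to 16.7 in WT JQ1.

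Averaged over treatments, 3 of these 28 rose and 2 fell in the knockout (median 0.04). ACADVL rose by 0.35 (SE 0.0381, edgeR adjusted p = 1.64e-05), LPL by 0.31 (SE 0.0564, adjusted p = 0.00159), and SLC25A20, the carnitine carrier that works beside CPT1A, by 0.23 (adjusted p = 0.0286). The SLC25A20 call was lost in 8 of 17 alternatives, 7 of them with 1 library left out (adjusted p up to 0.075). VLDLR fell by 0.33 (SE 0.0581, adjusted p = 0.000984) and ACAA2 by 0.24. VLDLR was at 9.69 to 11.2 CPM in WT DMSO and 6.48 to 6.80 in KO DMSO, while the JQ1 groups, at 16.2 to 16.6 and 15.8 to 16.3, overlapped. In DMSO 1 of the 28 rose and 3 fell in the knockout, beside 3.47% and 4.44% of all genes. In JQ1 2 rose and 1 fell, beside 3.01% and 5.56%. SLC25A20 lies outside the rule for named genes and was named after its values were seen. For the difference between JQ1 responses edgeR called 0 of the 28, beside 0.134% of all genes, so few that 0 here says little about the list. Of the 28, 5 had an unadjusted edgeR p under 0.05, beside 1817 of all 21698 genes. The alternatives called at most 1 of the 28 higher and 1 lower.

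Other angiopoietin and angiopoietin-like genes were read beside these. ANGPT1, a TIE2 ligand, fell with JQ1, at -0.80 in wild type (edgeR adjusted p = 0.0012) and -1.30 in knockout (adjusted p = 2.3e-05). ANGPT2 fell by 0.82 in wild type (SE 0.299, adjusted p = 0.0483) and stood at -0.05 in knockout. That call was lost in 11 of 18 alternatives, and without replicate 3 of WT DMSO the value was -0.60 (adjusted p = 0.204). Averaged over treatments the knockout values of ANGPT1, ANGPT2, ANGPT4 and ANGPTL7 ran from -0.24 to 0.42, with edgeR adjusted p from 0.48 to 0.927. ANGPTL7 was below 1 CPM in every library, and ANGPTL5 and ANGPTL8 had at most 5 counts.

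Among 18 genes listed for lipases, receptors and proteases of angiopoietin-like proteins 14 were tested, and LPL is in this list too. The list also holds TIE1 and the angiopoietin receptor gene TEK (TIE2), although angiopoietin-like proteins do not bind TIE2. With JQ1 6 rose and 5 fell in wild type, and 7 rose and 5 fell in knockout. Scaled by library totals these were 4 and 7, and 5 and 5. The integrin gene ITGB3 rose from 549 to 556 CPM in WT DMSO to 1062 to 1147 in WT JQ1 (log2 1.00, adjusted p = 3.27e-08) and by 1.05 in knockout. ITGA1 fell, at -0.82 and -0.86. LMF1, which matures lipases, fell too, at -0.87 and -1.40. Averaged over treatments, 3 rose and 3 fell in the knockout, or 1 and 3 with library totals. ITGA5, part of the fibronectin receptor, fell by 0.43 (SE 0.0521), from 164 to 168 CPM in WT DMSO to 122 to 137 in KO DMSO. LILRB2, the leukocyte receptor of ANGPTL2, had at most 3 counts, TEK (TIE2) at most 8, GPIHBP1, the anchor of LPL, at most 2 and the protease gene PCSK6 at most 28, and these 4 were not tested.

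Of 11 paralogs and partners of the lipid genes tested, 2 rose and 3 fell with JQ1 in wild type, and 1 rose and 2 fell in knockout. These are 45.5% and 27.3% of the list, beside 33.1% and 34.4% of all genes called. The kinase gene PDK3 rose by 0.46 and 0.38, and PDK2 fell, at -0.40 and -0.77. The knockout value of PDK3 did not pass without replicate 2 of KO DMSO (0.33, adjusted p = 0.0538) or with library totals (0.26, adjusted p = 0.0757). PLIN3, another droplet coat gene, rose by 0.34 in wild type. PDP1, the phosphatase that opposes the PDKs, fell by 0.38 in knockout. PDK1 fell by 0.30 in the averaged knockout comparison (SE 0.049, edgeR adjusted p = 0.000597), the direction opposite to PDK4, and with TMM scaling it was the 1 gene of the list called there. Genes that hold an angiopoietin-like gene in an intron numbered 4. RALGPS1 is given above, and DOCK6, which holds ANGPTL8, fell with JQ1, at -0.59 and -1.13.

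Since ANGPTL4 is also a known target of hypoxia, of glucocorticoids and of TGF-beta, short lists of genes induced by each were read beside it. Of 12 hypoxia-induced genes, all tested, 10 rose with JQ1 in wild type (median 0.73) and 10 in knockout (median 0.90), where 16.9% and 16.7% of all genes rose. The 2 that did not pass were CA9 and EGLN3. With library totals 10 rose in each genotype and 1 fell in wild type. Averaged over treatments, 1 rose and 6 fell in the knockout (median -0.24), where 6.48% and 8.27% of all genes did. The 1 that rose was ANKRD37, by 0.44 (edgeR adjusted p = 0.00196), a call kept in 17 of 17 alternatives. The glycolysis regulator gene PFKFB4 rose by 1.58 and 1.61 with JQ1, NDRG1 by 0.94 and 1.13, and LDHA (lactate dehydrogenase) by 0.83 and 1.06. NDRG1 was at 91.2 to 106 CPM in WT DMSO, 180 to 193 in WT JQ1, 44.2 to 45.1 in KO DMSO and 92.3 to 105 in KO JQ1. In the knockout NDRG1 fell by 1.02 averaged over treatments (SE 0.047, adjusted p = 1.58e-09). CA9, a carbonic anhydrase and standard hypoxia marker, fell by 2.23 in that average (SE 0.174, adjusted p = 4.26e-07). With JQ1 its values were -0.44 and 0.39, which did not pass. Oxygen was not a variable of the design.

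**Figure D4:**
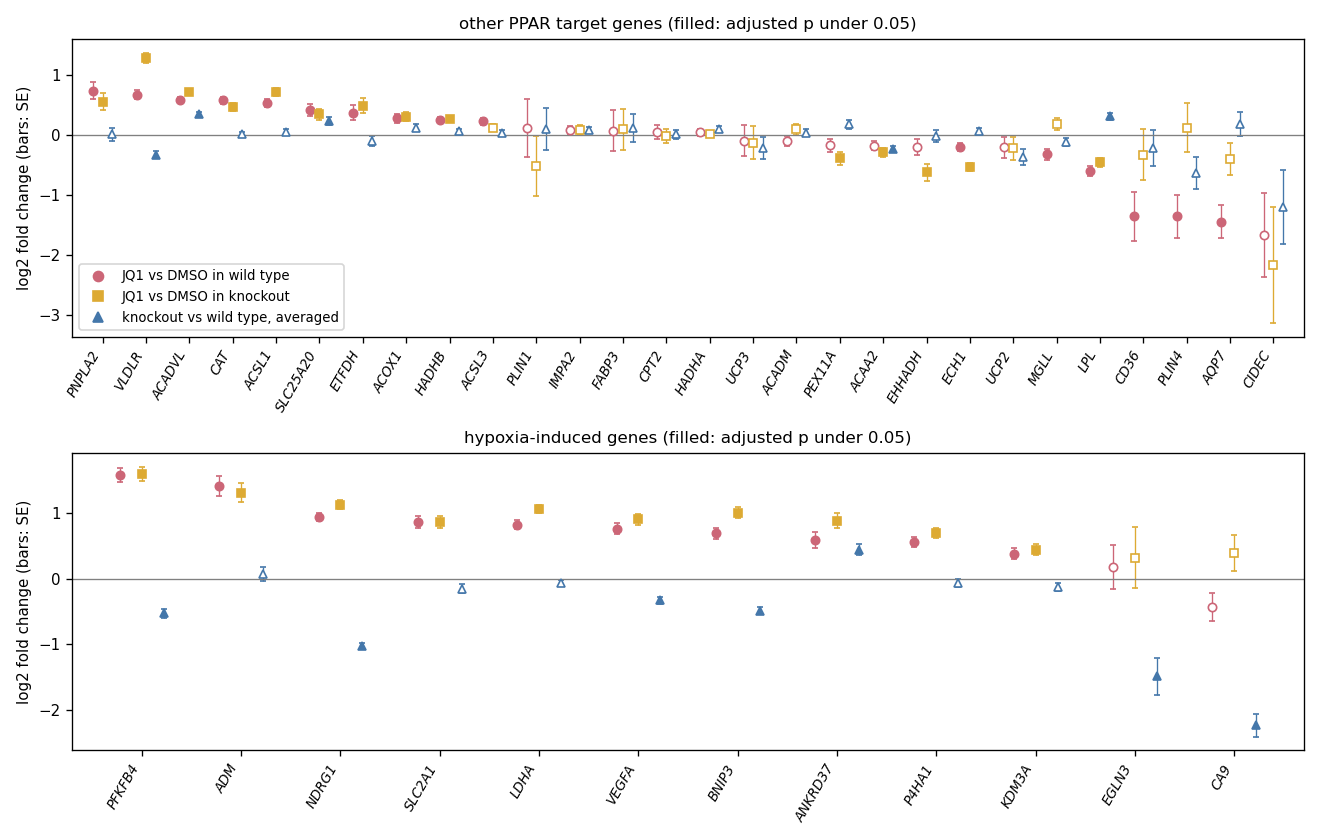
Log2 fold changes (vertical axes, bars for the SE) of the other PPAR target genes and of the hypoxia-induced genes in 3 comparisons; filled symbols passed an adjusted p of 0.05. With JQ1 in wild type 10 of 28 PPAR targets rose and 6 fell, and 10 of 12 hypoxia-induced genes rose.

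The glucocorticoid-induced list had 8 of 9 genes tested. With JQ1 2 fell in wild type and 3 in knockout, and the others did not pass. These are 25% and 37.5% of the 8, near the 33.1% and 34.4% of all genes called. KLF9 fell, at -0.33 and -0.17, as did CEBPD, at -0.46 and -0.69, and ERRFI1 fell by 0.25 in knockout. The wild-type call of CEBPD was lost without replicate 2 or 3 of WT DMSO, or 1 or 3 of WT JQ1 (adjusted p up to 0.0878). Averaged over treatments KLF9 fell by 0.12 and ERRFI1 rose by 0.14 in the knockout. These 2 calls were lost in 10 and 5 of 17 alternatives (adjusted p up to 0.139 and 0.111). Of 10 TGF-beta-induced genes 7 rose and 2 fell with JQ1 in each genotype, or 6 and 2 with library totals. PMEPA1 rose by 1.54 and 1.53, CTGF by 1.48 and 1.31, and TGFBI by 1.24 and 0.43. Averaged over treatments 1 rose and 3 fell in the knockout. TGFBI, a matrix protein gene, was at 52.6 to 57.7 CPM in WT DMSO and 11.7 to 13.9 in KO DMSO, and it fell by 2.57 averaged (SE 0.065, adjusted p = 1.6e-12). Its JQ1 response was smaller in knockout, by -0.81 (SE 0.127, adjusted p = 0.0208), a call lost with any 1 of 7 libraries left out (values from -0.853 to -0.739, adjusted p up to 0.0735).

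The genes whose pattern over the 12 libraries was most like that of ANGPTL4 were UCN2 (r = 0.995), CREB3L2 (0.994), TRAM2 (0.994), AXL (0.993) and ENO2 (0.993). This is Pearson's r on log2 CPM, computed for the 11250 genes whose mean was 5 CPM or more, and it is a description. UCN2, a neuropeptide of the corticotropin-releasing family, ran from 21.5 to 23.3 CPM in WT DMSO, 92.4 to 109 in WT JQ1, 13.02 to 16.7 in KO DMSO and 62.0 to 91.3 in KO JQ1. AXL, a receptor tyrosine kinase, ran from 240.1 to 252 CPM in WT DMSO to 430.2 to 500.2 in WT JQ1. For ANGPTL2 the closest were ETNK2 (r = 0.966), ADAMTS12 (0.963), BLACAT1 (0.962), LPIN1 (0.961) and GALNT6 (0.96). ADAMTS12, a secreted protease, was at 39.8 to 45.9 CPM in WT DMSO, 30.0 to 32.6 in WT JQ1, 29.7 to 36.0 in KO DMSO and 14.5 to 15.7 in KO JQ1. LPIN1, a phosphatidate phosphatase and coactivator of PPARs, had a narrower range, from 45.1 to 57.6 CPM. Without the library that stands apart each of these 10 stayed among the first 7 for its gene. All points share libraries and depth, and a group difference alone can give an r of this size.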

How the data were processed

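RNA was measured in 12 libraries, 3 in each of 4 groups, which were assigned from the genotype and treatment labels; the titles call the DMSO cells untreated, and the treatment field was followed. The 10 genes and the 9 gene lists were chosen with earlier results of these data known. Per the labels' protocols, libraries were made from total RNA depleted of ribosomal RNA with a directional kit. The submitters' processing notes name kallisto, Trim Galore, cutadapt, FastQC, MultiQC, DESeq2 and GRCh38.p10, without roles. The authors deposited estimated counts per gene symbol, which need not be whole; testing was planned for whole counts, so they were rounded. The authors' other deposited table, a normalized signal for 32828 genes, differs from the counts by factors specific to gene and library, and served 1 alternative only.

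Genes were kept by edgeR's filterByExpr (21698 genes) and scaled by TMM (factors 0.926 to 1.06). All 12 libraries entered 1 quasi-likelihood model with a term per group (edgeR 4.0.16, limma 3.58.1, R 4.3.3), checked on simulated data. Benjamini-Hochberg adjustment ran over all genes tested, and the threshold was 0.05. CPM are counts scaled to a TMM-adjusted library of 1000000. An SE was obtained by dividing a log2 fold change by the root of its F statistic. Intervals are 95%. The 6 contrasts were the JQ1 effect per genotype, the knockout effect per treatment and as their average, and the difference between JQ1 responses. At 25316899 to 34594295 counts a library, genes under about 1 CPM rest on few counts.

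Genes named beyond the 10 were up to 3 per list and contrast with the smallest adjusted p under 0.05, the host genes RALGPS1 and RALGPS2, and the 5 most like ANGPTL4 and the 5 most like ANGPTL2. LPL, PLIN1, PLIN4 and CPT2 are each in 2 lists. CCN2 was matched by its older symbol CTGF. Locations came from GENCODE release 29, by symbol, and promoters from RefSeq. Alternatives were library-total scaling, no low-count filter, a replicate block, only the groups compared, DESeq2 1.42.0, limma on the authors' signal (pseudocount 1), a threshold of 0.01, and each library left out. Results of some listed genes are not reported here. The averaged knockout comparison was planned as a test for all 10 genes, but is given without one for ANGPTL2.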

Additional observations from a re-analysis of the deposited data

Results flagged for a closer look

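Among the genes described, ANGPTL2 had different JQ1 responses in the 2 genotypes, with a log2 difference of -1.03 (SE 0.157) in knockout minus wild type. It was chosen for this difference, which is therefore a description. Its 3 KO JQ1 libraries, at 6.45 to 8.23 CPM, were all below the 9 others. TGFBI, a TGF-beta-induced matrix gene, also had different responses by the test of the difference itself, at -0.81 (SE 0.127, edgeR adjusted p = 0.0208). It rose with JQ1 in both genotypes, by 1.24 in wild type and 0.43 in knockout. That call was kept in 10 of 17 alternatives and lost with any 1 of 7 libraries left out, with values from -0.876 to -0.739 over the alternatives. ADAMTS12 was past the threshold too, with a difference of -0.70 (SE 0.119). It was picked for its likeness to ANGPTL2 over these libraries, so its value is a description as well.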

How the results depend on the processing

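With 19 alternatives the 4 genes called in the averaged knockout comparison (ANGPTL4, PLIN2, CPT1A, PDK4) kept their direction and call in each setting that could be run. The comparison of only the groups concerned cannot be made for the average or for the difference of responses. The library-total scaling gave -0.0143 for PPARG in DMSO and -0.0186 for ANGPTL1 averaged, and DESeq2 gave 0.000183 for PPARG averaged, each on the other side of 0 from the main value. Leaving out 1 library moved ANGPTL1 between -0.397 and 0.39 in JQ1 and between -0.0895 and 0.304 averaged, PPARD in JQ1 between -0.283 and 0.0751, and PPARG averaged between -0.029 and 0.0193.

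Counts of genes called moved more. The difference of responses had 29 genes, against 236 with no filter, 139 with DESeq2, 6 at 0.01, and 8 (without replicate 1 of WT JQ1) to 88 (without replicate 3 of KO JQ1) with a library left out. The DMSO knockout comparison had 1718, against 2619 with only the groups compared, 926 at 0.01, and 1092 (without replicate 3 of KO DMSO) to 2650 (without replicate 3 of KO JQ1). The JQ1 knockout comparison had 1860, against 922, 965, and 1223 (without replicate 2 of WT JQ1) to 2331 (without replicate 3 of KO JQ1). At 0.01 there were 4781 for JQ1 in wild type, against 7187, and 1861 for the averaged comparison, against 3202. In DMSO 4 of the 9 genes other than ANGPTL2 were called, against 2 with limma on the authors' signal, 2 at 0.01, and 2 (without replicate 1 or 2 of WT DMSO, or 1 or 3 of KO DMSO) to 4. Apart from the stricter threshold, the cause was not tested.

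Replicate numbers did not pair the libraries: deviations of libraries with the same number correlated at -0.115 to 0.0786 over 18 pairs, and 2 of 12 libraries correlated best with their own number. With a replicate block 2878 genes were called in the averaged comparison and 21 for the difference of responses, and PDK4 in JQ1 was at 0.27 (adjusted p = 0.0675). Depth limits ANGPTL6, with 2 to 23 counts a library.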
